A study of Homo sapiens with 6 samples.

Results

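Transcripts of POMP, NFE2L1 and PSMC3IP were followed in MOLM14 cells after siRNA against ATF4. They are the genes that remained when protein-coding genes with a proteasome symbol (PSMA to PSMG followed by a digit, and PSME), together with POMP and NFE2L1, were looked up among the named features of the array. The gene table holds 52 such genes, and 3 of them have a named feature, out of 14884 genes named in all. The other 49, among them every 20S, 19S and immunoproteasome gene with such a symbol, were not analysed here. What follows is therefore about 1 assembly factor, 1 transcription factor and 1 gene that shares only a symbol with the proteasome (2 cap subunits with other symbols, ADRM1 and SEM1, come with the associated factors).

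MOLM14 is a cell line from human acute myeloid leukaemia with monocytic features. It had been electroporated with siRNA against ATF4 (siATF4, 3 arrays) or with a non-targeting control pool (siCTRL, 3 arrays), both at 70 nM, and all cells were grown in RPMI with serum. Since technical replicates is what the labels call them, the p-values cover the spread among these 6 samples alone, and separate cultures are not stated. Levels are log2 values of Affymetrix whole-transcript arrays, and every difference is siATF4 minus siCTRL on that scale.

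The proteasome is the barrel-shaped protease that degrades ubiquitin-tagged proteins. POMP, the proteasome maturation protein, is a chaperone that helps the rings of the core particle join and is itself degraded when the particle is complete. NFE2L1, also called NRF1, is an ER-anchored transcription factor that is released and processed when proteasome activity falls, and then raises transcription of the proteasome genes through antioxidant response elements. PSMC3IP, also called HOP2, works with MND1 in the pairing of homologous DNA and is no part of the proteasome. Its symbol records a reported interaction with the 19S ATPase PSMC3.

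The 250 bases before the start of POMP and before the first listed start of NFE2L1 are shown because these genes carry the proteasome part of the result and the knocked-down protein is a transcription factor. Both are read 5′ to 3′ on the plus strand, from RefSeq on GRCh38.p14. POMP lies at chr13:28658880-28659129 and NFE2L1 at chr17:48048109-48048358. Capitals mark a match to the ETS motif CCGGAAGT in POMP and matches to the CCAAT box in NFE2L1, on either strand.
POMP: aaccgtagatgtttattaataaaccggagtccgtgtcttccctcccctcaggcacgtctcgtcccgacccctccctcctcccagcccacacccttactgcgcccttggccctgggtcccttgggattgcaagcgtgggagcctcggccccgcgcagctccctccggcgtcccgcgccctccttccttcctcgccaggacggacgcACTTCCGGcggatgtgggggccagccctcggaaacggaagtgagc
NFE2L1: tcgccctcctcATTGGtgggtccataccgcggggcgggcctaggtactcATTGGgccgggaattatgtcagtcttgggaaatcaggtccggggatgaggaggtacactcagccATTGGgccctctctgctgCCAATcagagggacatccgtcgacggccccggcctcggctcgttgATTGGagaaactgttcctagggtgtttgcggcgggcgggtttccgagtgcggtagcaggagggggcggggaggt

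The POMP window held 1 match to CCGGAAGT, starting 45 bases before the gene, on the minus strand. That motif is found in 3.42% of 35116 promoter windows of the same length, and in 8 of the 58 windows (13.8%) of the 52 genes with a proteasome symbol, POMP or NFE2L1. The NFE2L1 window held 5 matches to CCAAT, 4 on the minus strand and 1 on the plus strand, starting 239, 201, 137, 119 and 74 bases before the gene. At least 1 CCAAT was found in 32% of all windows (24 of the 58, or 41.4%) and at least 5 in 0.319%. The window of the other NFE2L1 start held 0 and both windows of PSMC3IP held at least 1. Matches are descriptions of letters and were not tested as binding sites.

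Motifs were also searched for ATF4 and NFE2L1 themselves, on both strands. The CEBP-ATF response element TGATGNAA, to which ATF4 heterodimers bind, is in 3.14% of all windows, and the cAMP response element TGACGTCA in 1.65%. The antioxidant response element TGACNNNGC is in 10.9% and TGACTCAGC, a stricter form whose matches are also matches to it, in 0.456%. None of these 4 motifs was found in the windows of POMP, NFE2L1 (both listed starts) or PSMC3IP (both listed starts), which says only that the letters are absent there. Over the 58 windows of all 52 genes, 13 (22.4%) held TGACNNNGC and 0 held TGATGNAA.

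The arrays showed a lower ATF4 level with siATF4 and also a large spread within groups. The log2 level of ATF4 was 7.92 ± 0.21 after siATF4 and 8.72 ± 0.11 after siCTRL (SD, n = 3 each), and its groups did not overlap. By limma, 0 of 14884 genes (0%) were called at an adjusted p below 0.05, so ATF4 was not called either. At an unadjusted p below 0.05 lay 218 (1.46%), or 464 (3.12%) with the replicate number as a block. Of the myeloid markers looked for, 8 of 12 had a named feature (4 higher and 4 lower with siATF4, 0 called), and CD33, CEBPA, HOXA9 and ITGAM were not analysed here. LYZ lay at 8.33 to 10.9 over the 6 arrays, SPI1 at 7.78 to 8.52 and FLT3 at 8.19 to 9.67, while the monocyte receptor CD14, at 3.22 to 4.18, lay near the array medians of 3.88 to 3.96. Single arrays stood apart. MPO read 5.58 on siATF4 replicate 1 against 8.45 to 10.45 elsewhere, and CSF1R read 8.18 there against 5.05 to 6.57. Of the 8 myeloid markers 6 (FLT3, MEIS1, LYZ, CD14, CSF1R and KIT) were lowest on both arrays numbered 3, and MPO was highest there. Over all genes, 12.5% were lowest on both arrays numbered 3 (7.36% and 9.27% for numbers 1 and 2). The T cell markers CD2 and CD8A (2 of 5 measured) lay at 3.92 to 4.20. The erythroid markers KLF1 and EPB42 (2 of 5 measured) lay at 3.57 to 4.04. The B lineage factor PAX5 (1 of 5 measured) read 3.76 on siATF4 replicate 1 and 5.28 to 6.12 on the other arrays.

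POMP was slightly higher on average with siATF4, but the groups overlapped. Its log2 level was 10.36, 10.04 and 10.35 on siATF4 replicates 1, 2 and 3, and the controls stood at 10.16, 10.13 and 10.07. On siATF4, replicates 1 and 3 thus lay above every control and replicate 2 below every control. The group means were 10.25 ± 0.18 and 10.12 ± 0.05 (SD, n = 3 each). The difference was 0.13 with a standard error (SE) of 0.12 and a 95% interval from -0.16 to 0.43. On the linear scale that is 110% of control, with an interval of 89.5% to 134%, so both a small decrease and an increase by that upper size lie within what these arrays leave possible. The limma adjusted p was 1.00 (unadjusted 0.314) and the two-sided exact permutation p was 0.4, where 3 arrays against 3 cannot go below 0.1.

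The spread of POMP was wider among siATF4 arrays. Of single arrays left out, siATF4 replicate 2 moved the POMP difference most. Without that array the difference was 0.24, and without siATF4 replicate 1 or 3 it was 0.08 or 0.09. With array weights and no array left out it was 0.03. By replicate number, siATF4 minus siCTRL came to 0.20, -0.08 and 0.28. The direction was thus the same for numbers 1 and 3 and opposite for number 2.

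**Figure D1:**
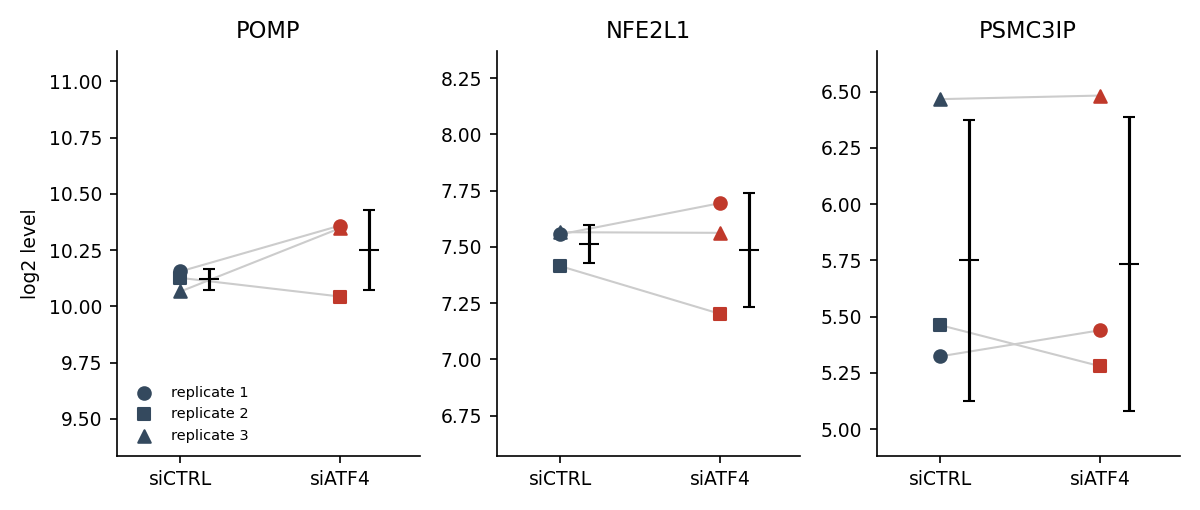
Log2 level of POMP, NFE2L1 and PSMC3IP on each of the 6 arrays, with siCTRL on the left and siATF4 on the right of each panel, grey lines joining arrays of the same replicate number and black bars giving the mean and SD of 3 arrays. The vertical axes span the same log2 range, and in all 3 genes the groups overlap, with PSMC3IP split by replicate number 3.

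NFE2L1 had nearly the same mean in both groups. It read 7.69, 7.20 and 7.56 after siATF4, and the controls stood at 7.56, 7.41 and 7.57. The siATF4 arrays held both the highest and the lowest of the 6 values. The means were 7.49 ± 0.25 and 7.51 ± 0.08 (SD, n = 3 each). The difference was -0.03 (SE 0.15), with a 95% interval from -0.38 to 0.33. As a share of the control level that is 98.3%, with an interval from 76.6% to 126%. The limma adjusted p was 1.00 (unadjusted 0.871) and the exact permutation p was 0.9, two-sided.

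As with POMP, the lowest NFE2L1 value was on siATF4 replicate 2. By replicate number the differences were 0.14, -0.21 and 0.00. Without siATF4 replicate 2 the difference turned to 0.12, and without siATF4 replicate 1 it was -0.13. The sign of the NFE2L1 difference thus changed with the array left out. These values are mRNA levels, and NFE2L1 is regulated to a large part by processing of its protein, which the arrays do not measure.

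PSMC3IP was high on both arrays numbered 3, whichever siRNA the cells had received. It read 5.44, 5.28 and 6.48 on siATF4 replicates 1, 2 and 3 and 5.32, 5.46 and 6.47 on siCTRL replicates 1, 2 and 3. Both arrays numbered 3 were high, and the remaining 4 lay close together. The group means were 5.73 ± 0.65 and 5.75 ± 0.62 (SD, n = 3 each), with a difference of -0.02 (SE 0.41) and a 95% interval from -0.997 to 0.964. The limma adjusted p was 1.00 (unadjusted 0.969) and the exact permutation p was 0.8, two-sided. With the replicate number as a block the difference was the same, its SE was 0.12 and its interval ran from -0.30 to 0.27 (unadjusted p = 0.889, limma with the block).

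The lower number 3 value of PSMC3IP stood 1.00 above the highest of the other 4 arrays. Such a split, with both number 3 arrays above the rest, was seen for 2483 of 14884 genes (16.7%), and with a gap at least as large for 59 (0.396%). For the numbers 1 and 2 the shares of genes above the rest were 8.51% and 8.12%. MND1, the partner of PSMC3IP, was looked at after these values were seen. It read 6.01, 5.97 and 6.75 after siATF4 and 6.11, 6.09 and 6.86 in the controls, so both number 3 arrays were again highest, by 0.64 (a gap reached by 1.4% of genes). MND1 differed by -0.11 (SE 0.29, limma adjusted p = 1.00) between siRNAs, and by -0.10, -0.12 and -0.11 within numbers 1, 2 and 3. The number 3 arrays also had the lowest level of 6 of 8 myeloid markers, and of 12.5% of all genes. LYZ was at 8.33 and 8.51 there against 10.37 or more on the other 4, and MPO was highest there, at 10.45 and 10.17. What the replicate numbers stand for is not given in the labels, and their part in these levels was not tested further.

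**Figure D2:**
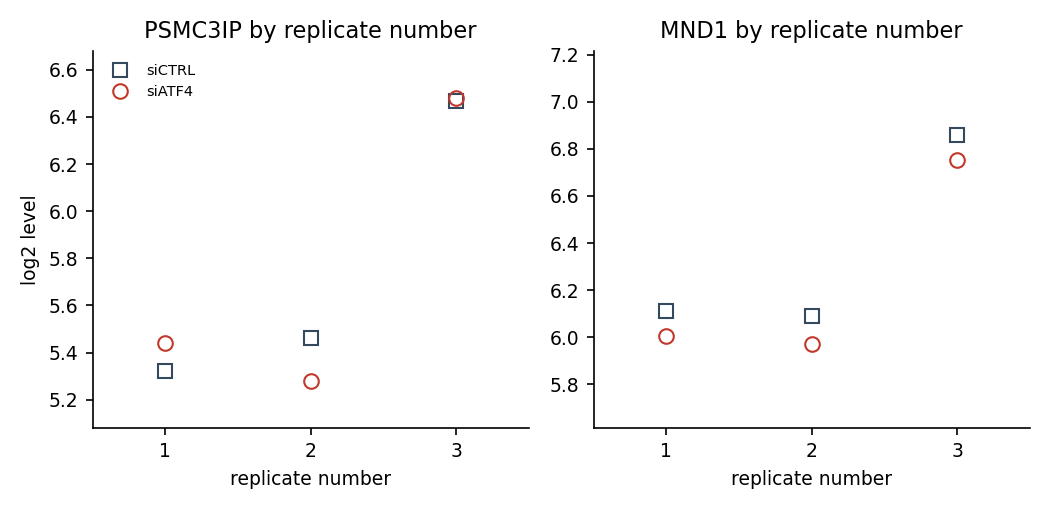
Log2 levels of PSMC3IP (left) and of its partner MND1 (right) by replicate number, with siCTRL arrays as squares and siATF4 arrays as circles. In both panels the 2 arrays numbered 3 lie above the other 4, by 1.00 for PSMC3IP and 0.64 for MND1. The other 4 lie close together whatever their number.

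No member was called. Of the 3 genes 0 passed limma's adjusted threshold, 0 had an unadjusted p below 0.05 (also 0 when blocked by replicate number) and 0 had groups without overlap. Over all genes the shares were 0%, 1.46% (3.12% with the block) and, for all siATF4 arrays above or below all controls, 3.3% and 2.59%. The median difference of the 3 was -0.02, beside 0.01 over all genes tested. That median is the value of PSMC3IP, which is no part of the proteasome, with POMP at 0.13 and NFE2L1 at -0.03. With 3 members these shares have little to show, and the intervals above are the more useful bound.

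Proteasome-associated factors, the cap subunits ADRM1 and SEM1 among them, were measured for 13 of 17 listed genes. Of these 11 were higher and 2 lower in the mean, with 0 called and 0 at an unadjusted p below 0.05 in limma. Their median difference was 0.04, beside 0.01 over all genes, of which 8011 of 14884 were higher. The listed genes were read on the same arrays, so their directions are not independent. USP14, the deubiquitinase that trims ubiquitin chains at the cap, had the largest difference. It read 9.27, 9.50 and 9.94 after siATF4 and 9.20, 9.30 and 9.72 in the controls, and its difference of 0.16 (SE 0.22) was smaller than its SE, although it was higher in every replicate number. PAAF1, an inhibitor of 19S assembly onto the core, was at 0.14 (SE 0.13) and also higher in every number, as were 14.4% of all genes. With the replicate block the SE was 0.11 for USP14 and 0.11 for PAAF1 (limma unadjusted p = 0.184 and 0.253). ADRM1, the ubiquitin receptor of the cap, was at -0.04 (SE 0.14), and SEM1, a small 19S subunit that the symbol rule does not catch, at -0.06 (SE 0.19). The group ranges overlapped for all 13 genes. Of all genes, 3.3% had every siATF4 array above every control and 2.59% had every one below.

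Genes that process NFE2L1 or bind with it were listed together with the related factor NFE2L2 and its adaptor KEAP1, and 12 of 16 were measured. Of these 5 were higher and 7 lower, with a median difference of -0.05 and 0 called in limma. At an unadjusted p below 0.05 lay 0 of them (1.46% of all genes), and 1, KEAP1, with the replicate block (3.12% of all genes). KEAP1, the adaptor that marks the related factor NFE2L2 for degradation, was lowest. It read 7.50, 7.58 and 7.87 after siATF4 and 8.03, 7.81 and 8.15 in the controls. Only siATF4 replicate 3 reached into the control range, just above siCTRL replicate 2. The difference was -0.35 (SE 0.15, 95% interval -0.70 to 0.01), with a limma unadjusted p of 0.0543 (0.0271 with the block) and an adjusted p of 1.00 (0.999 with the block).

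UFD1, part of the VCP complex that pulls proteins out of the ER membrane, was at -0.26 (SE 0.16) and, like KEAP1, lower in every replicate number, as were 9.2% of all genes. With the block the SE of UFD1 was 0.11 and its limma unadjusted p was 0.0537 (adjusted p = 0.999). Its partner NPLOC4 went the other way at 0.19 (SE 0.17), with VCP itself at 0.04 (SE 0.17). NGLY1, the enzyme that removes sugar chains from NFE2L1, was at 0.17 (SE 0.16) and higher in every number (0.19, 0.19 and 0.13). With the block the SE of NGLY1 was 0.10 (limma unadjusted p = 0.159). NFE2L2 was at -0.07 (SE 0.25) and the small partner MAFG at 0.06 (SE 0.18). BTRC, a ubiquitin ligase adaptor for NFE2L1, had the widest interval, -1.17 to 0.92, and read 7.38 and 7.37 on the number 3 arrays against 5.79 to 6.72 on the others.

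The class I antigen pathway, which takes up peptides that the proteasome makes, was measured for 7 of 16 genes, 3 higher and 4 lower, with a median of -0.01 and 0 called in limma (0 at an unadjusted p below 0.05). B2M, the light chain of class I molecules, read 9.15, 8.90 and 8.52 after siATF4 and 9.28, 8.94 and 8.67 in the controls, a difference of -0.11 (SE 0.22). In both groups its level was highest on number 1 and lowest on number 3. TAPBPL was at 0.19 (SE 0.18) and the chaperone CALR at -0.15 (SE 0.20). The interferon signal factors (8 of 12 measured, 4 higher and 4 lower, 0 called) had a median of -0.02, with JAK2 at 0.36 (SE 0.40), IRF9 at -0.32 (SE 0.66) and IRF1 at 0.03 (SE 0.27).

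**Figure D3:**
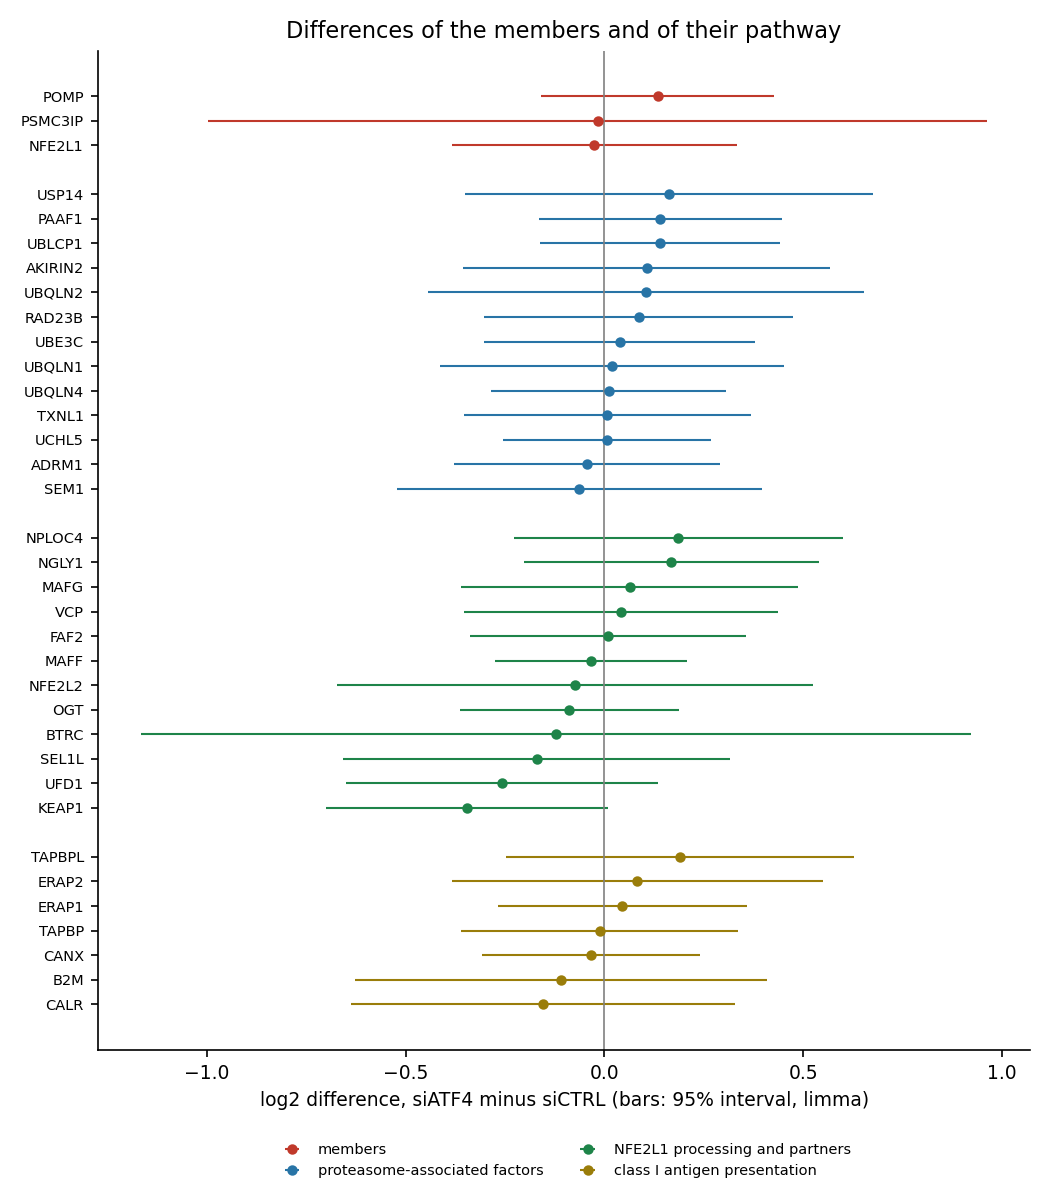
Log2 differences, siATF4 minus siCTRL, with 95% intervals from limma for the 3 members, 13 proteasome-associated factors, 12 genes around NFE2L1 and 7 class I antigen genes. Every interval crosses 0, with KEAP1 nearest to leaving it on the low side and PSMC3IP and BTRC the widest.

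The members were recomputed under 14 other settings, among them each array left out in turn. POMP stayed above 0 in all 14, from 0.03 with array weights to 0.24 without siATF4 replicate 2. NFE2L1 ranged from -0.16 with array weights to 0.12, and PSMC3IP from -0.39 to 0.34, the first with siATF4 replicate 3 left out and the second with siCTRL replicate 3 left out. With both number 3 arrays left out PSMC3IP was at -0.03 (SE 0.15). No setting gave an adjusted p below 0.05 for any of the 3 genes.

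**Figure D4:**
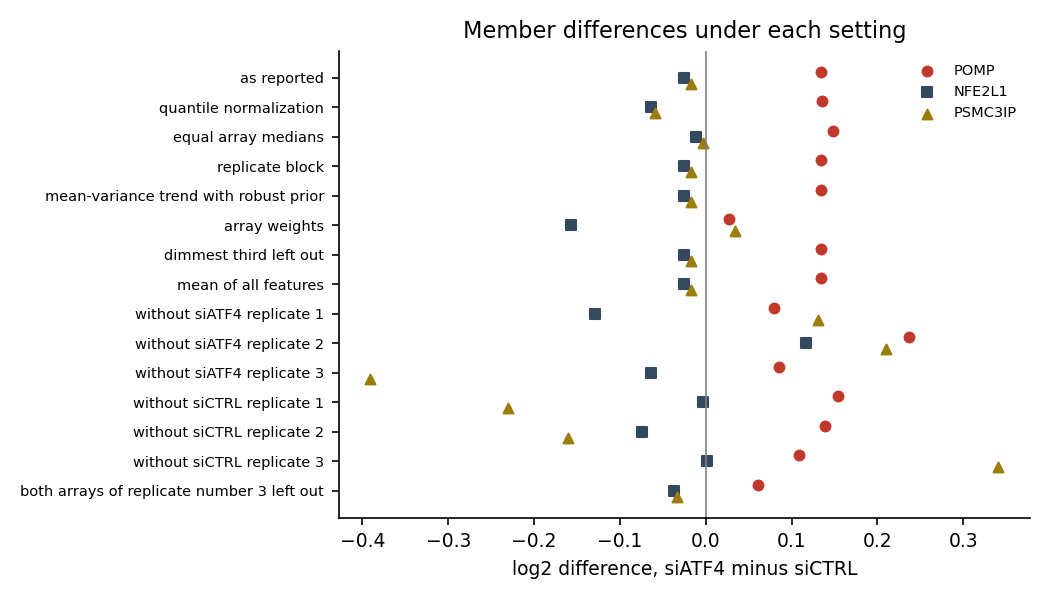
Log2 differences of POMP (circles), NFE2L1 (squares) and PSMC3IP (triangles) as reported and under 14 other settings. POMP points stay right of 0, NFE2L1 points lie on both sides, and PSMC3IP moves most when a single number 3 array is left out.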

How the data were processed

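Total RNA (100 ng) was turned into biotinylated target for Affymetrix arrays of the whole-transcript type, as the labels' protocols state. The values deposited by the authors were read as log2. Partek is named in the submitters' processing notes, with version, background correction and normalization not given in the sources used here. Of 53617 features, 16098 had 1 gene symbol, 0 several and 37519 none in the platform's annotation. The brightest feature stood for each of 14884 genes, without a filter on dim ones. Each of POMP, NFE2L1 and PSMC3IP has 1 feature, above the array median on all 6 arrays. Signal over background was not analysed here, and the number of arrays limits the precision (median SE 0.15).

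The test was that of limma (version 3.58.1, run under R 4.3.3), with lmFit and eBayes (group as the only term, Benjamini-Hochberg over all genes, threshold 0.05). A trial run on simulated arrays used independent noise for each gene, so it did not cover levels that arrays of the same replicate number share. Exact two-sided permutations of 3 arrays against 3 were added. A fit with the replicate number as a block was run beside the main one, although the labels do not say what the numbers stand for. Deviations from group means correlated between same-numbered arrays at 0.20, 0.40 and 0.62, each above a limit of 0.1. siATF4 replicate 2 correlated better with siCTRL replicate 1 (0.48).

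The members, 10 gene lists and tests were chosen with earlier results of these data known. Planned summaries of the immunoproteasome and of the catalytic subunits were not made, since none of those genes was analysed here. Named genes were all members, the 2 largest differences of each pathway list and B2M and IRF1. The myeloid, T cell, B lineage and erythroid markers given came from fixed marker lists, and those singled out for values were chosen after these were seen. ADRM1, SEM1, VCP, NPLOC4, NGLY1, NFE2L2, MAFG, BTRC and MND1, the promoter motifs and the antisense RNAs were chosen after values were seen.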

Additional observations from a re-analysis of the deposited data

How the results depend on the processing

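POMP kept its direction and stayed uncalled in all 14 alternatives. NFE2L1 turned from -0.03 to 0.12 without siATF4 replicate 2 and to 0.00 without siCTRL replicate 3, and ranged from -0.13 to 0.12 with single arrays left out. PSMC3IP turned from -0.02 to 0.034 with array weights. It also turned to 0.13 without siATF4 replicate 1, to 0.21 without siATF4 replicate 2 and to 0.34 without siCTRL replicate 3, and its lowest value was -0.39. MND1 (-0.11) turned to 0.01, 0.03 and 0.14 without the same 3 arrays, from a lowest value of -0.36. With single arrays left out POMP ranged from 0.08 to 0.24. The median of the 3 genes then ranged from -0.07 to 0.21, each time the value of a single gene. The cause of these turns was not tested. Leaving out 1 array makes the share of number 3 arrays uneven between the groups by construction. The replicate block left the differences at 0.13, -0.03 and -0.02, changed no call among the members, and brought the SE of PSMC3IP from 0.41 to 0.12. Leaving out both number 3 arrays was chosen after seeing the data.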

Other observations

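Features of 4 antisense RNAs carry proteasome gene names, matched by their own identifiers, and they are no measure of the genes they overlap. PSMB8-AS1 has 3 features with the same values. It read 5.998, 5.16 and 4.69 after siATF4 and 5.54, 4.65 and 4.76 in the controls, a difference of 0.30 (SE 0.38), with both number 1 arrays highest. PSMD6-AS2 differed by 0.29 (SE 0.26), PSMG3-AS1 by 0.12 (SE 0.18) and PSMA3-AS1 by -0.19 (SE 0.28), each with a limma adjusted p of 1.00 and overlapping groups. PSMG3-AS1 was high on siATF4 replicate 1, at 4.45, against 3.81 to 4.01 on the other arrays.

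All 25 measured genes of a type I interferon list of 34 had a lower mean with siATF4, as had 6873 of all 14884 genes. The list had a median difference of -0.43 and 0 called in limma (0 at an unadjusted p below 0.05). IFITM1 had the largest difference, -1.31 (SE 0.91), and read 4.44 on siATF4 replicate 1 against 7.86 to 8.29 elsewhere, followed by IFIT1 at -1.06 (SE 0.70). The list mean was 5.06, 6.05 and 5.15 with siATF4 and 6.76, 5.88 and 5.18 with siCTRL. It was highest on siCTRL replicate 1 and lowest on siATF4 replicate 1, while the number 2 and number 3 pairs lay close together. None of POMP, NFE2L1 and PSMC3IP followed that order of arrays.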
